A study of Mus musculus with 12 samples.

Results

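The variable (Trav) and joining (Traj) segments of the T-cell receptor alpha chain were examined in 12 mouse thymic lymphomas profiled by RNA-seq. Members were the rows of the count table whose Ensembl identifier maps to a symbol starting with Trav or Traj in GENCODE M21 and that held at least 1 count in any tumour. There were 91 such rows of 37991 in the table, 32 of them Trav and 59 Traj. The annotation lists 128 Trav and 60 Traj genes, and 33 and 59 of these matched a row. No row matched Trav11, the variable segment of the invariant natural killer T-cell (NKT) receptor, nor its copies Trav11d and Trav11n, so Trav11 was not analysed here and has no share below. All shares of Trav counts are therefore shares of the 32 matched rows.

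The series compares 8 lymphomas labelled responder with 4 labelled non-responder, judged by growth or shrinkage on magnetic resonance imaging during restoration of p53. All mice were on a C57BL/6 background with the genotype p53neo/R172H;R26CreER/GNZ. Both groups thus carried the R172H mutant allele, the neo allele from which wild-type p53 is recovered, and a tamoxifen-activated Cre at the broadly expressed Rosa26 locus, and both received weekly tamoxifen. The tumours arose spontaneously and were taken after the last scan, so there is no untreated group, and the labels give no age. Each tumour gave 1 library of 20796860 to 30265753 counts.

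An alpha chain gene is assembled in developing thymocytes by joining 1 Trav to 1 Traj, which removes the DNA between them. Joining can be repeated on the same chromosome with a Trav further upstream and a Traj further downstream, and both chromosomes can rearrange. The joined gene is transcribed through the remaining downstream Traj segments to the constant gene Trac, and the RNA between the used Traj and Trac is spliced out. The genes of the delta chain lie between the Trav and Traj clusters and are lost when a Trav joins a Traj. T cells of a clone share its rearrangement, and most clones differ in theirs. NKT cells of many clones instead share the same rearrangement, Trav11 to Traj18, and mucosal-associated invariant T (MAIT) cells share Trav1 to Traj33.

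On chromosome 14 of GRCm38 the annotated Trav genes lie from 52427928 to 53977678, the Traj genes from 54155005 to 54218842 and Trac from 54220521 to 54224206, all on the plus strand. The coordinates are those of GENCODE M21 and were not used in the authors' counting. Traj numbers fall along the cluster, with Traj61 at the 5′ end and Traj1 next to Trac. The defining T-lineage genes Cd3d, Cd3e, Cd3g, Cd247, Lck, Thy1, Cd2 and Cd5 were all present, none below 10.4 counts scaled to library size (CPM) in any tumour. Summed CPM of the other-cell marker lists ranged, over responders and then non-responders, from 12.2 to 183 and from 5.78 to 33 for B cells, from 152 to 769 and from 132 to 369 for macrophages, from 19.1 to 602 and from 2.48 to 20.3 for neutrophils, and from 15.1 to 250 and from 95.7 to 165 for natural killer cells. No marker of these 4 lists was at 0 in every tumour. Their part in the segment values was not tested, and in bulk tissue fewer T cells and less receptor RNA per cell cannot be told apart.

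The joining segments at which the profiles below changed most are shown 5′ to 3′ as GENCODE M21 transcripts, with the joining motif in capitals where it was found. The motif is the phenylalanine-glycine-any-glycine signature of a joining region, with either codon for phenylalanine. It was found in 43 of the 60 annotated Traj (71.7%) on the coding strand and in 0 on the other strand. Traj18 (54200777 to 54200842) and Traj19 (54200386 to 54200446) are neighbours, as are Traj31 (54187895 to 54187951) and Traj32 (54186101 to 54186166), and Traj44 (54173690 to 54173750), the segment with the lowest p between the groups, lies further 5′. Traj19 and Traj44 hold no match to the motif.
Traj18: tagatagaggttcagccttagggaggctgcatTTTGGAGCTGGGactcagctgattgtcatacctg
Traj19: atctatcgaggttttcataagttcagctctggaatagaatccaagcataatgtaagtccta
Traj31: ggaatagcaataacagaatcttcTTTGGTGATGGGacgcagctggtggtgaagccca
Traj32: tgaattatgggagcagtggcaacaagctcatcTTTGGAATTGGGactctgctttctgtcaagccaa
Traj44: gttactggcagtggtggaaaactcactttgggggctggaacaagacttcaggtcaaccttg

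Joining segments are 29 to 72 bases long, shorter than the 75-base reads. A read counted on a Traj row therefore also covers sequence beside it, and how reads that reached Trac as well were assigned is not given in the sources used here. Variable segments raise a different limit, since many have near copies. The last 60 bases of 5 variable segments are shown, with the codon of the conserved cysteine in capitals, because they show how far copies can be told apart. The cysteine codon was located as the end of TATNNNTGT, TATNNNTGC, TACNNNTGT or TACNNNTGC, found on the coding strand in 123 of the 128 annotated Trav, among them all 32 members, and on the other strand in 0.
Trav13-1: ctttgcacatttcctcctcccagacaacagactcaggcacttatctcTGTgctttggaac
Trav13d-1: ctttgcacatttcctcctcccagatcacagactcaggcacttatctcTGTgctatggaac
Trav13-3: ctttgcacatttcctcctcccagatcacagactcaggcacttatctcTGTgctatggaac
Trav8-2: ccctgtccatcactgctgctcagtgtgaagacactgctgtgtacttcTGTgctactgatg
Trav21-dv12: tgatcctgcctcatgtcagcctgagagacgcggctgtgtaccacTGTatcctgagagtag

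Trav13d-1 and Trav13-3 end in the same 60 bases, with 0 mismatches, and Trav13-1 differs from either at 3. Of the 75-base windows of Trav13d-1, 74.5% occur in another annotated Trav, against 18.6% for Trav8-2 and 0% for Trav21-dv12. Among the 32 members 9 share no window and 5 share more than 50% of their windows, and among the 95 annotated Trav without a row 56 do. Trav11 and Trav11d share all of theirs (100%). Counts on Trav13, Trav16 and other copied segments are therefore uncertain between copies.

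Trav rows held few counts in 5 of the 8 responders. Summed Trav counts were 888, 816, 194, 77, 12, 33, 23 and 40 in responders 1 to 8, and 694, 390, 603 and 352 in non-responders 1 to 4. In CPM, with library sizes scaled by the trimmed mean of M values (TMM), the responders were at 33.5, 33.6, 8.18, 2.51, 0.491, 1.12, 0.857 and 1.59 and the non-responders at 31.8, 19.1, 27.7 and 16. Responders 3 to 8 lay below every non-responder and responders 1 and 2 above every one, so the groups overlapped. The non-responders averaged 23.7 ± 7.38 CPM (SD, n = 4) and the responders 10.2 ± 14.6 CPM (SD, n = 8).

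The joining segments and the constant gene did not follow the Trav rows. Summed Traj levels were 79.8, 120, 7.0, 51.1, 20.2, 107, 63.5 and 22.3 CPM in responders 1 to 8. They were 194, 58.4, 38.7 and 14.3 CPM in the non-responders. Trac, which encodes the constant region of the chain, stood at 45.4, 114, 3.71, 114, 35.4, 86.4, 156 and 21.1 CPM in responders 1 to 8. It stood at 102, 19.4, 31.2 and 13.4 CPM in the non-responders. Responder 7 had the highest Trac level of the 12 tumours and the second lowest Trav sum. Per 100 Trac counts there were 73.7, 29.4 and 220 Trav counts in responders 1 to 3, but 2.21, 1.39, 1.30, 0.549 and 7.50 in responders 4 to 8. In the non-responders this ratio was 31.4, 98.7, 88.9 and 119. The 5 responders with a ratio under 10 were therefore low in counts on the matched Trav rows and not in Trac. Trav segments without a row could not be counted in any tumour. The summed level of the 8 T-lineage markers was also lower in these 5 responders, at 617, 1007, 760, 1018 and 1092 CPM, against 1243 to 2162 CPM in the other 7 tumours. Its part in the Trav levels was not tested.

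**Figure D1:**
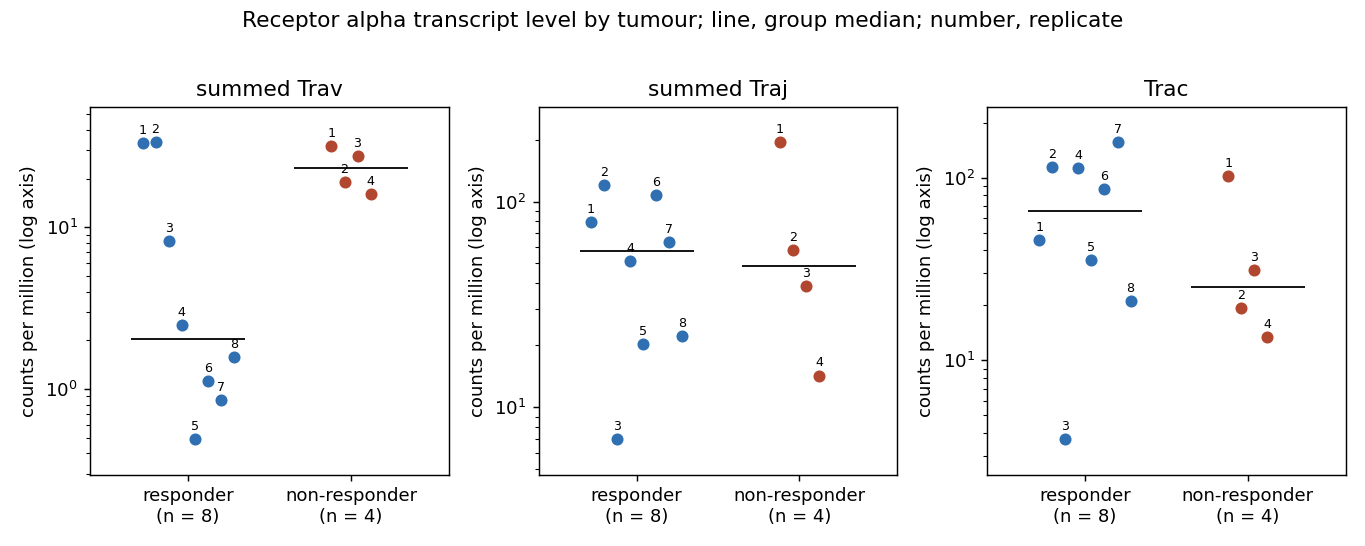
Level of summed Trav, summed Traj and Trac by tumour, in TMM-scaled CPM on a log axis. Points are tumours with their replicate number, and lines are group medians. The summed Trav level of responders 4 to 8 lies between 0.491 and 2.51 CPM, below all other tumours, whereas their Trac level lies between 21.1 and 156 CPM.

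No tumour drew all of its Trav counts from 1 segment. The leading Trav held 24.5% (Trav8-2), 37.7% (Trav13-1) and 32.5% (Trav18) of the Trav counts in responders 1, 2 and 3. Wilson 95% intervals, which cover counting error only, were 21.8 to 27.5%, 34.5 to 41.1% and 26.3 to 39.3%. In the non-responders the leading segment was Trav21-dv12 with 31.6% (28.2 to 35.1%), Trav16 with 40.8% (36.0 to 45.7%), and Trav8-2 with 23.1% (19.9 to 26.6%) and 27.0% (22.6 to 31.9%). Of these 7 tumours with at least 194 Trav counts, 3 were thus led by the same row, Trav8-2, which the annotation lists as a pseudogene. The 4 pseudogene rows among the Trav members together held 24.2% of the 4122 Trav counts.

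In responders 4 to 8 the shares rest on so few counts that their order is loose. Trav16n led in responder 4 with 18 of 77 counts (23.4%, 15.3 to 34.0%) and Trav13-3 in responder 6 with 7 of 33 (21.2%, 10.7 to 37.8%). Trav13d-1 led in responder 5 with 4 of 12 (33.3%, 13.8 to 60.9%) and in responder 8 with 22 of 40 (55.0%, 39.8 to 69.3%). Trav1, the MAIT segment, led in responder 7 with 7 of 23 (30.4%, 15.6 to 50.9%). A segment without counts could still have held up to 25.0% of the Trav counts in responder 5 and 3.90% in responder 4, but not more than 0.338 to 1.55% in responders 1 to 3. Elsewhere Trav1 had 3 counts in responder 1, 5 in responder 8, 5 in non-responder 3, 1 in non-responder 4 and 0 in the other 7 tumours, and Traj33, its MAIT partner, had 0 counts in responder 7.

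A second segment held at least 10% in every tumour. Non-responder 2 came closest to a pair, with 40.8% on Trav16 and 36.7% on Trav8-2, whose annotated positions are neighbours (53743104 and 53738375 at their starts). Trav14-1 was second in responders 1, 2 and 3, with 14.2, 16.4 and 13.9%. Trav21-dv12 was second in non-responders 3 and 4, with 11.1 and 13.4%, and Trav18 in non-responder 1, with 13.3%. In responders 4 to 8 the second segments were Trav16d-dv11, Trav6n-5, Trav8n-2, Trav13d-1 and Trav1, on 3 to 11 counts each. Trav13-3 tied with Trav6n-5 in responder 5 (25.0%) and with Trav1 in responder 8 (12.5%).

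Across the tumours 14 of the 32 Trav rows reached 10% in at least 1. Trav13-1 took 37.7% in responder 2, 2.60 to 8.76% in responders 1, 3 and 4, 0% in responders 5 to 8, and 4.47, 0, 4.31 and 3.69% in the non-responders. Trav18 took 32.5% in responder 3, 13.3% in non-responder 1 and 0% in responders 2 and 4 to 8. Trav21-dv12, which can also join to the delta chain, took 31.6% in non-responder 1 and 0.256% in non-responder 2, and had 0 counts in responder 2. Trav13-3, annotated as a pseudogene, was the 1 Trav row with counts in all 12 tumours, at 4.12 to 25.0%. It shares 74.0% of its 75-base windows with another annotated Trav, so these counts are uncertain between copies. The other 18 rows stayed below 10% in every tumour.

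**Figure D2:**
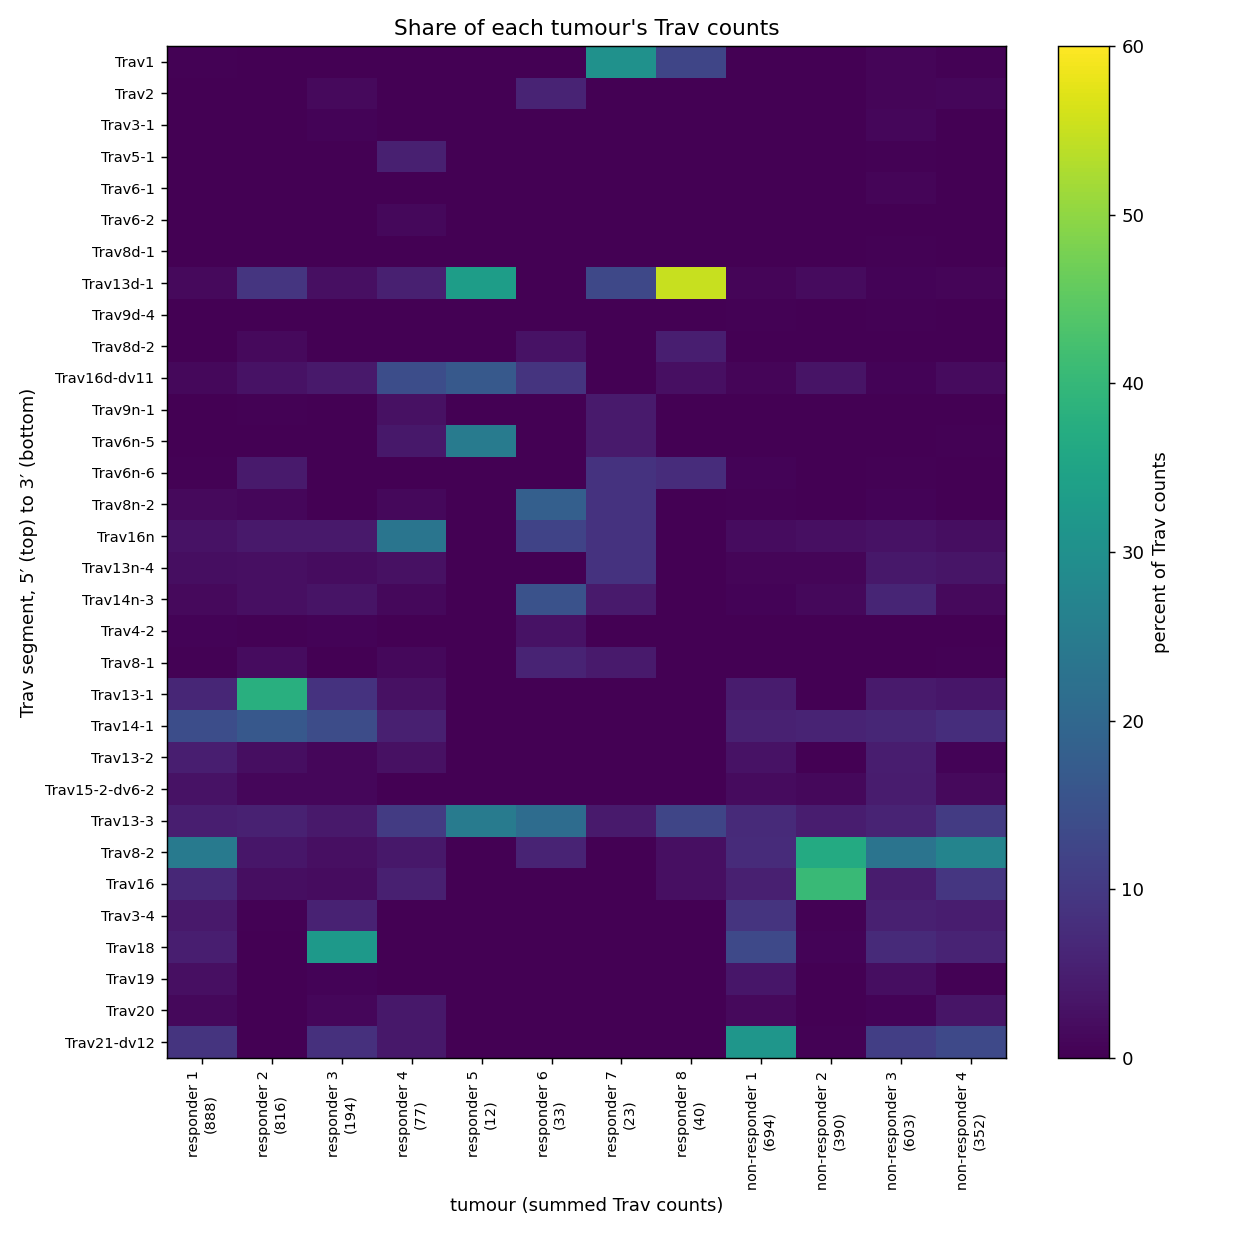
Share of each tumour's Trav counts on each of the 32 Trav rows, in percent, with rows ordered from the 5′ end (top) to the 3′ end (bottom) of the locus and the summed Trav counts under each tumour. Counts of responders 1 and 3 and of the non-responders concentrate in the lower rows, while the few counts of responders 5 to 8 in those rows lie on Trav13-3, Trav8-2 and Trav16.

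The counts also differed in where along the cluster they fell. The median Trav count lay 416, 609 and 411 kb before the first Traj gene in responders 1, 2 and 3, and 323, 416, 416 and 416 kb before it in the non-responders. In responders 4 to 8 it lay 803, 1050, 784, 1050 and 1303 kb before it, again on 12 to 77 counts. The rows at these 5 medians were Trav16n, Trav6n-5, Trav14n-3, Trav6n-5 and Trav13d-1. They share 38.3 to 80.7% of their 75-base windows with another annotated Trav, so these places are also uncertain between copies. The rows at the medians of the other 7 tumours share 0 to 32.1%. The part of copy assignment in this difference was not tested. Evenness was summarised as the effective number of segments, the count of equally abundant rows that would give the same inverse Simpson index. It was 9.07, 5.26, 6.61, 9.43, 3.79, 7.31, 6.70 and 2.91 for the Trav rows of responders 1 to 8 and 6.81, 3.24, 10.3 and 7.82 for those of non-responders. The groups overlapped in this number as in the leading share, whose median was 31.5% in responders and 29.3% in non-responders.

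The Traj rows carried 19261 counts and showed a profile along the cluster that differed from tumour to tumour. In all 12 tumours the 12 rows from Traj61 to Traj50 were low, at no more than 8 counts each. Downstream of them the place where counts rose differed between tumours. The steepest rise was found by comparing the mean count of 5 neighbouring rows with that of the 5 rows before them, after adding 0.5 to each, a measure chosen after the profiles were seen.

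In responder 7 the count rose from 1 on Traj19 to 44 on Traj18, and the 5 rows on either side averaged 0.8 and 77.0 counts, a ratio of 59.6. Responder 5 had the same boundary, with 1 count on Traj19 and 13 on Traj18 and averages of 0.8 and 18 (ratio 14.2). In responder 4 the counts were 8 on Traj19 and 36 on Traj18, with averages of 8.40 and 85.4 (ratio 9.65). At this window all 3 tumours had their steepest rise at Traj18, the joining segment of the invariant NKT receptor. Responder 4 also had 58 counts on Traj24 and 45 on Traj25, between 9 on Traj23 and 8 on Traj26. In responder 6 the rise lay further 5′, with 1 count on Traj32 and 38 on Traj31 and averages of 1.80 and 65.8 (ratio 28.8). With 3 or 7 rows on each side the place stayed the same in responders 6 and 7. It moved to Traj20 and Traj19 with 3 rows in responder 5, and in responder 4 to Traj27 and Traj26 with 3 rows and to Traj29 and Traj28 with 7, so the boundary of responder 4 depends on the window.

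With 5 rows on each side, the other 8 tumours had their steepest rise further 5′. Non-responder 1 had a ratio of 20.3 between Traj51 and Traj50, with averages of 3.60 and 82.8, so a steep rise was not limited to responders. The ratio was 8.47 and 4.82 between Traj50 and Traj49 in non-responders 3 and 4, and 3.97 between Traj41 and Traj40 in non-responder 2. In responders 1, 2, 3 and 8 it was 2.60, 7.80, 3.0 and 4.72, at Traj54 and Traj53, at Traj46 and Traj45 in both responders 2 and 3, and at Traj51 and Traj50. The low ratios had no fixed place. In responder 3 the rise moved to Traj14 and Traj13 with 3 rows (ratio 2.45), 3′ of Traj18, and to Traj50 and Traj49 with 7. In responder 1 it moved to Traj50 and Traj49 with 7 rows. In responder 8 and in non-responders 1 and 3 it moved by 1 segment with 3 or 7 rows.

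Traj18 itself can be set against its 5′ neighbour within each tumour, which for responders 4, 5 and 7 describes the same step again. Traj18 and Traj19 had 48 and 69, 65 and 75, 4 and 5, 36 and 8, 13 and 1, 98 and 86, 44 and 1, and 5 and 15 counts in responders 1 to 8. The pairs were 55 and 75, 20 and 32, 6 and 9, and 8 and 15 in the non-responders. Traj18 held 81.8% (exact 95% interval 67.3 to 91.8%), 92.9% (66.1 to 99.8%) and 97.8% (88.2 to 99.9%) of the counts of both in responders 4, 5 and 7. These intervals cover counting error only. In the other 9 tumours it held between 25.0 and 53.3%. On few counts the intervals overlapped, since they reached 78.8% in responder 3 (9 counts on both rows) and 67.7% in non-responder 3 (15 counts). The level of Traj18 alone did not set these tumours apart, since it was 1.17, 0.532 and 1.64 CPM in them and 1.81, 2.67 and 3.33 CPM in responders 1, 2 and 6.

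**Figure D3:**
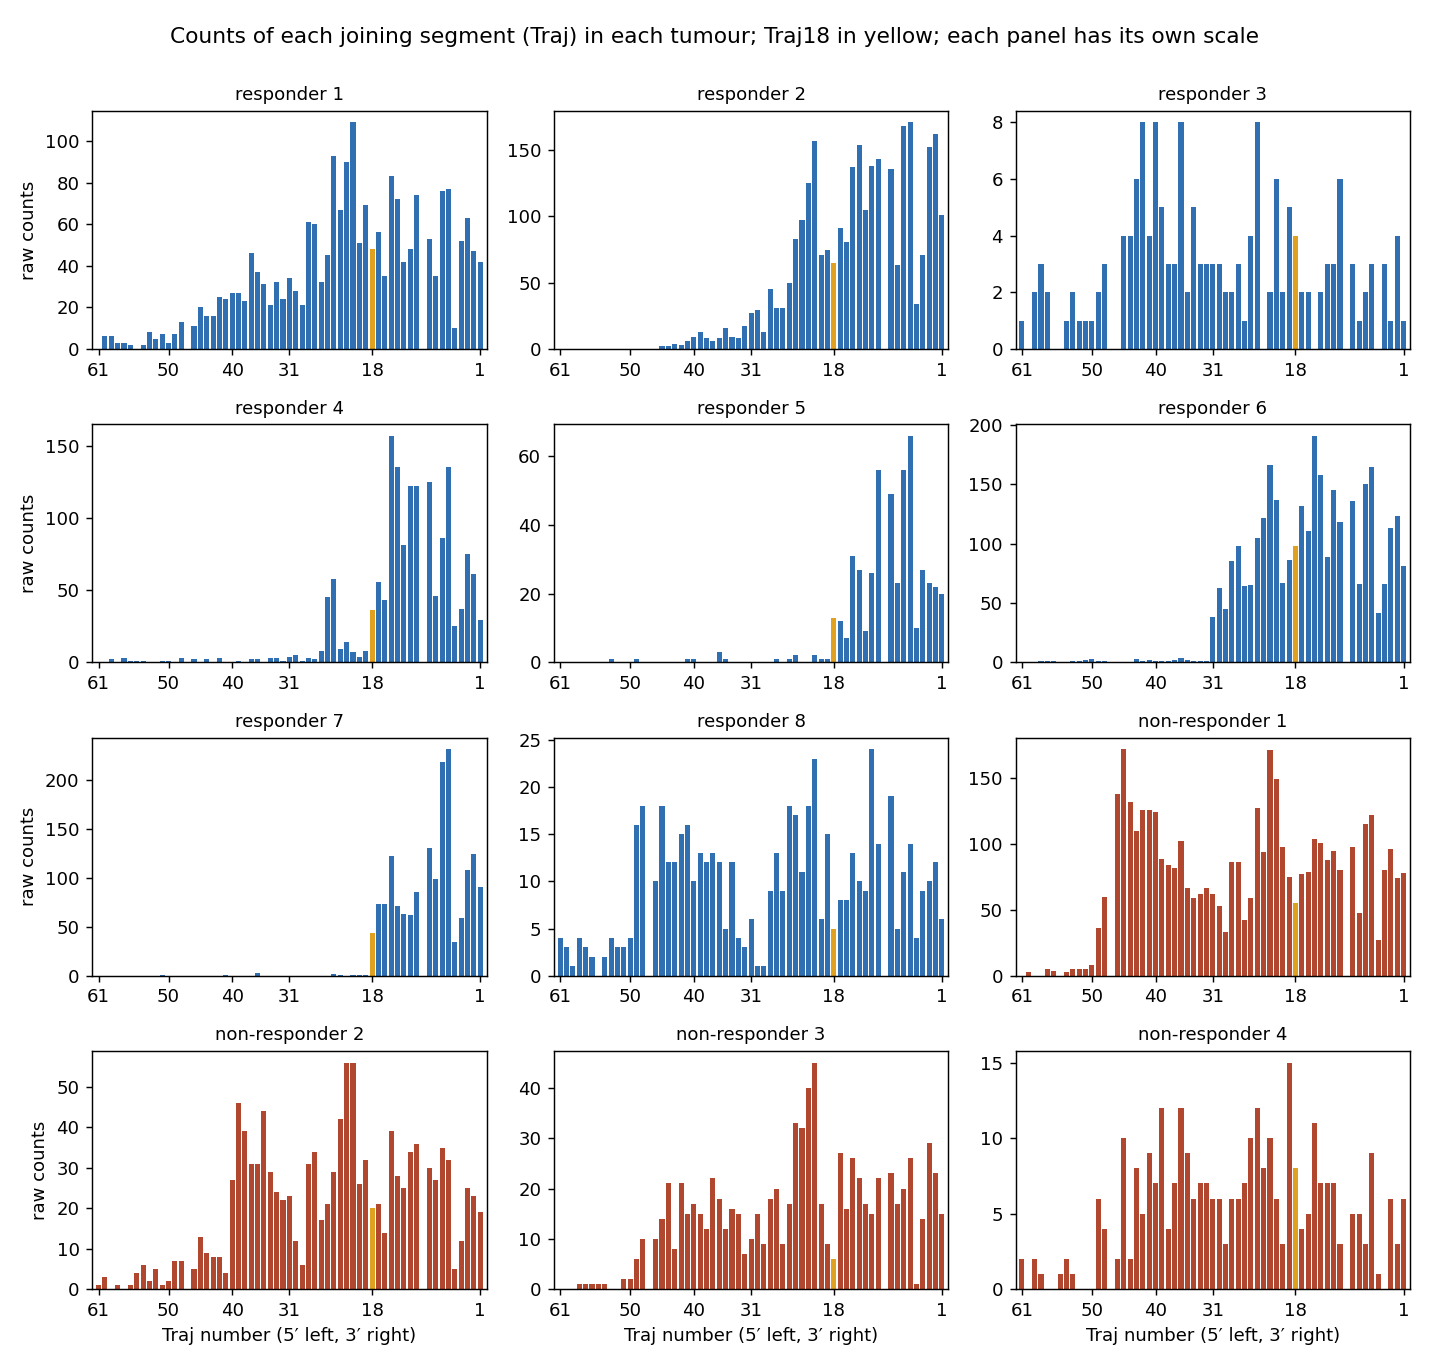
Raw counts of each joining segment in each tumour, from Traj61 at the 5′ end (left) to Traj1 at the 3′ end (right), with Traj18 in yellow and a separate scale per panel. The numbers 10 and 47 have no row. Responders 5 and 7 rise at Traj18 and responder 6 at Traj31. Responder 4 has a first group of counts at Traj25 and Traj24 and a second from Traj18. Non-responders 1, 3 and 4 and responder 8 rise at Traj50 or Traj49, and non-responder 2 at Traj40.

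Responder 2 had 0 counts from Traj61 to Traj50 and 2 on Traj45, and climbed gradually to 157 on Traj21. Responder 1 climbed in a similar way to 109 on Traj21. Non-responder 1 had 5 counts on each of Traj51 and Traj52, 8 on Traj50, 36 on Traj49 and 138 on Traj46. Non-responder 2 went from 4 on Traj41 to 27 on Traj40. Responder 3 had 166 Traj counts in all, at most 8 on any row, and responder 8 had 562, at most 24.

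Summed over stretches, the 17 rows from Traj18 to Traj1 held 43.1, 67.6, 24.1, 87.3, 96.8, 62.8, 99.4 and 32.2% of the Traj counts in responders 1 to 8, and 33.5, 35.7, 37.9 and 28.7% in the non-responders. The responders therefore spread from below to far above the non-responders. The 16 rows from Traj49 to Traj33 held 17.8, 3.22, 41, 1.34, 1.42, 0.665, 0.234 and 35.2% in responders and 37.1, 27.9, 27.6 and 35% in non-responders. No tumour had most of its Traj counts on 1 segment. The leading Traj held 4.07 to 5.35% in non-responders and 4.27 to 13.6% in responders, highest for Traj6 in responders 5 (13.4%) and 7 (13.6%). The effective number of Traj rows was 38.4 to 42.0 in non-responders and 13.0 to 42.8 in responders.

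**Figure D4:**
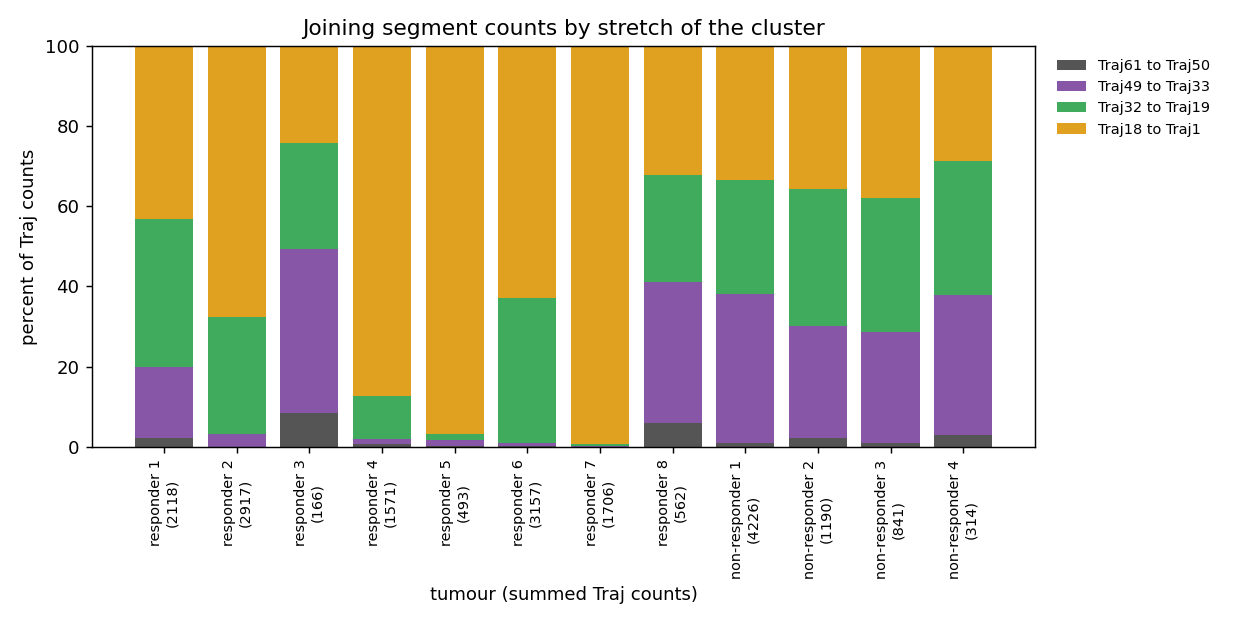
Percent of each tumour's Traj counts in 4 stretches of the joining cluster, with the summed Traj counts under each tumour. Traj18 to Traj1 hold 87.3 to 99.4% in responders 4, 5 and 7 and 28.7 to 37.9% in the non-responders.

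Other receptor genes can be read beside these profiles. Counts on the 7 matched delta rows (Trdv1, Trdv2-1, Trdv2-2, Trdv4, Trdv5, Trdj1 and Trdj2), which lie between the Trav and Traj clusters or among the last Trav, were 165, 2, 80, 10, 7, 5, 5 and 882 in responders 1 to 8. They were 755, 32, 134 and 78 in the non-responders. The responders with a rise at Traj18 or Traj31, and responder 2, had 10 or fewer. Responder 8 stood apart, with 538 counts on Trdj1 and 115 on Trdv4, against at most 126 and 8 in any other tumour. It did not stand apart in the 4 matched genes of a gamma-delta T-cell marker list (Tcrg-C1, Tcrg-C2, Tcrg-C4 and Sox13). Their summed level was 151 CPM in responder 8, within 21.7 to 252 CPM over the responders and 14.6 to 437 CPM over the non-responders.

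Rag1, which encodes part of the recombinase and is switched on in cortical thymocytes, was at 895, 1204, 1262, 0.456, 2.91, 0.510, 0.410 and 0.714 CPM in responders 1 to 8, and at 1498, 168, 1756 and 1264 CPM in the non-responders. Its partner Rag2 and Dntt, which adds bases at the joins, were at most 0.119 and 1.08 CPM in responders 4 to 8 and at least 10.2 and 19.1 CPM in the other 7 tumours. Zbtb16, which encodes PLZF, a factor of NKT and other innate-like T cells, was at 9.20, 1.27, 1.0, 331, 336, 378, 30.0 and 174 CPM in responders 1 to 8, and at 1.84, 2.45, 26.9 and 3.13 CPM in the non-responders. Ptcra, the gene of the pre-receptor alpha chain that pairs with beta before alpha is made, was at 0 to 0.123 CPM in responders 4 to 8 and at 9.95 to 68.4 CPM in the other 7 tumours. The tumours with the lowest Trav counts per Trac count were thus those with the lowest Rag1, including responder 8, whose Traj profile had no rise at Traj18 or Traj31. Cd1d1, whose product presents lipids to NKT cells, ranged from 13.8 to 23.9 CPM over the responders and from 14 to 37.1 CPM over the non-responders. Trdc, the constant gene of delta, matched no row and was not analysed here.

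The variable segments of the beta chain (Trbv) were more uneven than those of the alpha chain in each tumour. The leading Trbv of 20 rows held 75.4, 61.6, 74.8, 82.1, 97.6, 77.5, 97.2 and 99.0% in responders and 95.9, 98.3, 47.8 and 97.8% in non-responders, on 1840 to 12390 Trbv counts. This was above the leading Trav share in 12 of 12 tumours. Of the 128 annotated Trav genes 33 matched a row, and the part of the Trbv family that matched is not given here. The size of the gap therefore has no test. Trbv13-2, the beta segment most used by mouse NKT cells, led in responders 4, 5, 6 and 7 and in no other tumour. Its share there was 82.1, 97.6, 77.5 and 97.2%, against 24.4% in responder 3 and at most 9.08% in the other 7 tumours.

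**Figure D5:**
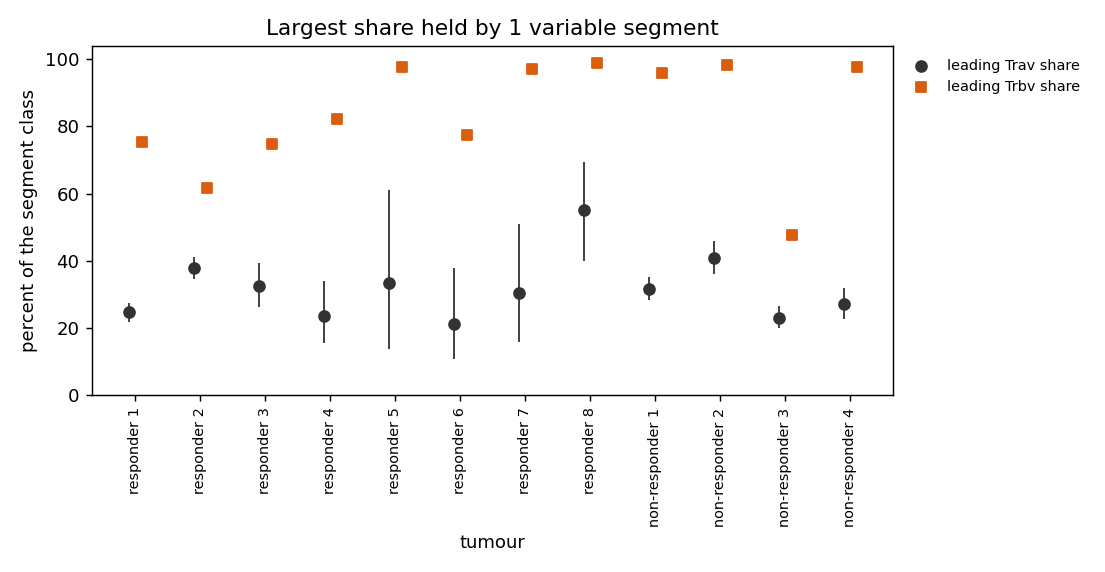
Largest share held by 1 variable segment in each tumour, for Trav (circles, with Wilson 95% intervals) and Trbv (squares), in percent of the counts of that segment class. The Trav share lies between 21.2 and 55.0% and the Trbv share between 47.8 and 99.0%.

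Responders and non-responders were compared over the whole table with edgeR's quasi-likelihood test. Of the 91 members, 55 passed the filter on low counts (11 Trav and 44 Traj), and 36 were not tested. No member passed an adjusted p of 0.05, as was the case for 0% of all 18612 genes. At an unadjusted p under 0.05, 15 of the 55 were higher in non-responders, against 7.73% of all genes, and 0 were lower, against 16.1%. Apart from Trav16, these 15 were Traj rows within the stretch from Traj48 to Traj32. Neighbouring Traj rows can be read from the same transcript, so the 15 are not independent of each other. The median log2 difference, non-responder minus responder, was 0.74 for the tested members and -0.02 for all genes. A row could pass the filter through the non-responders alone, so these figures do not describe all members. In none of the 55 did the groups fail to overlap, against 2.13% of all genes.

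The segments with the lowest p lay in the middle of the Traj cluster. Traj44 was at 0.603, 0.0822, 0.169, 0.0651, 0, 0, 0 and 0.476 CPM in responders 1 to 8. It was at 6.06, 0.441, 0.966 and 0.0908 CPM in the non-responders. Non-responder 1 was high, and non-responders 2 and 4 lay within the range of the responders. The log2 difference was 3.41, with an SE of 1.10 (adjusted p = 0.119 in edgeR). Traj36, annotated as a pseudogene, had means of 0.372 ± 0.437 CPM over the responders (SD, n = 8) and 1.89 ± 1.90 CPM over the non-responders (SD, n = 4). Its log2 difference was 2.34, with an SE of 0.75 (adjusted p = 0.119 in edgeR). Traj45, Traj40 and Traj39 followed at 3.47, 2.87 and 2.68. DESeq2 called 11% of 22781 genes with an adjusted p, 2.25% as higher and 8.75% as lower in non-responders, where edgeR called none. It called Traj44 (adjusted p = 0.0468) and Traj36 (adjusted p = 0.0326) as higher, 2 of 69 members with an adjusted p, a share near that over all genes. Without non-responder 1, the number of members at an unadjusted edgeR p under 0.05 fell from 15 to 2. The log2 differences of Traj44, Traj36, Traj45, Traj40 and Traj39 were then 1.5, 1.37, 1.42, 1.55 and 1.98.

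Traj18 showed no difference between the groups beyond the spread between tumours. It had means of 1.44 ± 1.16 CPM over the responders (SD, n = 8) and 1.04 ± 1.04 CPM over the non-responders (SD, n = 4). Its log2 difference was -0.48, with an SE of 0.81 (adjusted p = 0.749 in edgeR). Without non-responder 1 this was -1.41. Among the Trav rows, Trav16 had the lowest p, with means of 0.413 ± 0.772 CPM over the responders and 3.06 ± 3.16 CPM over the non-responders (SD). Its log2 difference was 2.88, with an SE of 1.17 (adjusted p = 0.164 in edgeR). Trav21-dv12, Trav3-4, Trav13-3 and Trav8-2 followed at 3.0, 2.42, 1.48 and 2.02 (edgeR adjusted p from 0.226 to 0.372). Without non-responder 2 the log2 difference of Trav16 was 1.83, and without responder 1 those of Trav21-dv12, Trav3-4 and Trav8-2 were 5.09, 4.03 and 4.41. Without non-responder 1 that of Trav21-dv12 was 1.89. Of the 11 tested Trav rows, Trav13-1 alone had a lower mean in non-responders (-1.27, SE 1.77), a direction that rested on responder 2 and turned to 0.92 without it. Traj11, Traj6, Traj2, Traj5 and Traj9 were the lowest in p among the 17 Traj rows with a lower mean (-0.90 to -0.73). Without non-responder 1 these 5 ran from -2.68 to -1.56.

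In the receptor pathway no gene passed in edgeR either, again beside 0% of all genes. Of all genes 9023 of 18612 had a higher mean in non-responders. Among the constant genes 4 of 6 tested had a higher mean in non-responders, and the log2 difference of Trac was -0.80, with an SE of 0.79 (adjusted p = 0.555 in edgeR) and -1.75 without non-responder 1. All 4 CD3 signalling chains and 7 of 8 recombination genes were higher on average, with Rag1 at 1.48 (SE 1.82) and Ptcra at 1.91 (SE 1.62, and 2.91 without responder 3). Of 11 tested NKT genes 5 had a higher and 6 a lower mean, and 3 of the latter had an unadjusted p under 0.05, Klrb1c, Il2rb and Zbtb16, beside 16.1% of all genes lower at that threshold. Zbtb16 had means of 158 CPM over the responders and 8.57 CPM over the non-responders. Its log2 difference was -4.20, with an SE of 1.66 (adjusted p = 0.157 in edgeR). DESeq2 called these 3 genes as lower, with adjusted p from 0.00182 to 0.0448, 3 of 30 pathway genes beside 8.75% of all genes. Klrb1c, a natural killer cell receptor gene, is also on the natural killer cell marker list given above.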

How the data were processed

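The authors deposited raw read counts per Ensembl gene, 1 column per tumour. Per the labels' protocols, TruSeq mRNA libraries were sequenced as 75-base paired reads, 4 to a lane. Per the submitters' processing notes, HTSeq and DESeq were used. Those notes name NCBIM37 and the extract protocol mm10, so the build is not settled. For aligner and strand setting, the sources used here give nothing. Symbols came from GENCODE M21 (GRCm38), and 32919 of 37991 identifiers had one. Counts were used as deposited, filtered with filterByExpr, scaled by TMM and tested with edgeR 4.0.16 (R 4.3.3) by the robust quasi-likelihood F test, two-sided, with Benjamini-Hochberg adjustment over all genes, and group as the sole term. Standard errors derive from the F statistic. DESeq2 1.42.0, RLE scaling, no filter, library totals without receptor segments and each tumour left out were the alternatives. Alternatives for the shares were copies summed by name (d and n copies with the row of the same number), no segments shared with delta, and counts per base of exon. Shares, intervals (SciPy 1.17.1) and profiles are descriptions without a test. The edgeR procedure alone was also run on simulated data, and the outcome of that run is not used here. No pair of libraries was a repeat (chi-square per degree of freedom at least 58.8). The tumours are labelled independent samples.

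Named segments are Traj18, Trav1, Traj33, the leading and second segments of each tumour, and those with the lowest p. Others were singled out after their values were seen, namely the Traj rows at the profile steps, the stretches of the Traj cluster, and the delta and Trbv rows. The members and lists were chosen with earlier results of these data known.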

Additional observations from a re-analysis of the deposited data

Results flagged for a closer look

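Among 46 combinations of a group and a reported quantity, 10 held a tumour far from the rest of its group, where chance flags about 1 in 20. Segments named for a high share in some tumour stand apart partly through that choice, and the quantities share tumours. The 10 can therefore not be set against that rate. Responder 8 had 21.3 CPM of Trdj1, a joining segment of the delta chain, against 0.905 CPM in the next responder. Responder 2 was high for Trav13-1 (12.7 CPM), Trav13d-1 (3.13 CPM) and Trav16d-dv11 (0.987 CPM). Responder 1 was high for Trav8-2 (8.22 CPM), Trav21-dv12 (3.02 CPM) and Trav16 (2.22 CPM). Trav16 was also high in non-responder 2, at 7.80 CPM against 1.65 CPM in the next non-responder. Trav14n-3 was high in non-responder 3, at 1.75 CPM against 0.245 CPM. Trav6n-5 was at 0.0454 CPM in non-responder 4, which is 1 count, and at 0 in the other non-responders. Responders 1 and 2 also had the 2 highest summed Trav levels, at 33.5 and 33.6 CPM.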

How the results depend on the processing

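With DESeq2 in place of edgeR, 2 segments and 3 receptor pathway genes were called, against 0 and 0, while DESeq2 called 11% of all genes and edgeR 0%. The cause was not tested. Trav13-1 turned from -1.27 to 0.92 both with DESeq2 and without responder 2, and its lowest value with 1 tumour left out was -1.70. RLE scaling, no filter and library totals without receptor segments each left both counts at 0, as did leaving out any 1 tumour. The log2 fold change of Traj18 ran from -1.41 to -0.15 with 1 tumour left out. With 1 tumour left out, the group medians of the leading Trav share ran from 30.4 to 32.5% in responders and from 27.0 to 31.6% in non-responders. Under the 3 alternatives for shares, the medians of the leading share and of the effective number moved by less than the spread between tumours, but the leading row changed. Copies were summed by name. This joined Trav13d-1 to Trav13-1, with 3 mismatches in the last 60 bases, and not to Trav13-3, with 0. That sum therefore does not settle the uncertainty between copies. With copies summed, Trav8-2 led in responder 6 (27.3%), per base of exon Trav8-2 led in non-responder 2 (40.9%), and without the segments shared with delta Trav18 led in non-responder 1 (20.2%, against 31.6% for Trav21-dv12). Comparing 3 or 7 Traj rows on each side, chosen after seeing the data, moved the step ratio of responder 5 from 14.2 to 6.11 (3 rows), of responder 4 from 9.65 to 15.0 (3 rows) and of non-responder 1 from 20.3 to 12.1 (3 rows). It moved those of non-responders 3 and 4 from 8.47 to 5.57 and from 4.82 to 9.0 (3 rows), of responder 1 from 2.60 to 3.91 (3 rows) and of responder 2 from 7.80 to 12.1 (7 rows). The alternatives planned for Trav11 could not be run, since no row matched it. No paired analysis was run, since the tumours are labelled independent samples. Shares in responders 4 to 8 rest on 12 to 77 Trav counts, and their intervals are wide.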
